A study of Mus musculus with 7 samples.

Results

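The 10 immediate early genes described here are Fos, Fosb, Jun, Junb, Atf3, Egr1, Egr3, Nr4a1, Ier2 and Dusp1, taken by symbol and Ensembl identifier from the 56854 identifiers that all count files shared, and each of the 10 was found in every library. They were measured by RNA sequencing in whole shoulder joints, 1 library per mouse, taken 2 weeks after repair of the rotator cuff, the tendons that steady the joint, at the supraspinatus tendon on the left side. Wild-type mice (n = 3) were compared with Tnc-/- mice (n = 4), which lack Tenascin C, a glycoprotein of the extracellular matrix made during tendon development and healing. Both genotypes had the same injury, repair and time point, and no uninjured joint was analysed here, so the values say nothing of a response to surgery itself. The tissue was the joint as a whole, so fewer cells of a type and less RNA per cell cannot be told apart. Strain, age and the design of the Tnc allele are not given in the sources used here.

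Immediate early genes are switched on within minutes of a stimulus such as a growth factor, stretch, injury or stress, from factors already present in the cell and without new protein synthesis. Their messages are short-lived, and many of their products are transcription factors that set the next wave of transcription. Fos and Jun family proteins pair to form AP-1; Atf3 joins the same dimers; Egr1 and Egr3 are zinc-finger factors; Nr4a1 is an orphan nuclear receptor; Ier2 is a nuclear protein; and Dusp1 is a phosphatase that switches off MAP kinases. In muscle, tendon and skin they also respond to handling of the tissue after death, which the labels do not time.

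The upstream windows of Nr4a1 and Junb, the genes of the 10 that rose, are shown with those of Fos and Dusp1, which were not called, because cyclic AMP response element half-sites stood in the windows of both kinds. Each window holds the 250 bases before the annotated start, 5′ to 3′ on the gene's strand, from RefSeq on GRCm38.p6. Windows were available here for 7 of the 10 genes and not for Egr1, Egr3 and Ier2, which says nothing of the annotation of those genes. Capitals mark every match to TGACG (the half-site, also part of the full element TGACGTCA), GCGNGGGCG (the EGR site) and TATAAA on either strand. The windows are chr15:101266596-101266845 on the plus strand for Nr4a1, chr8:84978749-84978998 on the minus strand for Junb, chr12:85473640-85473889 on the plus strand for Fos and chr17:26508473-26508722 on the minus strand for Dusp1.
Nr4a1: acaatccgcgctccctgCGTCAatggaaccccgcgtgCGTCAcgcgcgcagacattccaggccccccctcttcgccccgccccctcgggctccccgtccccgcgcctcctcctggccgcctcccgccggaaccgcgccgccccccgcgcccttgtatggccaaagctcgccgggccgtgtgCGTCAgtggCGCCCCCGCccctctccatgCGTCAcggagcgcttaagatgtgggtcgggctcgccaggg
Junb: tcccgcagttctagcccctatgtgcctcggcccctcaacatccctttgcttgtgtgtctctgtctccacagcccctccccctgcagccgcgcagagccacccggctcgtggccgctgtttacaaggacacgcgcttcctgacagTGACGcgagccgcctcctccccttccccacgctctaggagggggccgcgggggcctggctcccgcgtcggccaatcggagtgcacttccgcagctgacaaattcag
Fos: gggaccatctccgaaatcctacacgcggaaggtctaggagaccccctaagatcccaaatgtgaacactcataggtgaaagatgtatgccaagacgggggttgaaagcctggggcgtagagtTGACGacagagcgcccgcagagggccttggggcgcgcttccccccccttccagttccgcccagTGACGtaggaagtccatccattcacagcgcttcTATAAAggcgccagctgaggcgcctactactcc
Dusp1: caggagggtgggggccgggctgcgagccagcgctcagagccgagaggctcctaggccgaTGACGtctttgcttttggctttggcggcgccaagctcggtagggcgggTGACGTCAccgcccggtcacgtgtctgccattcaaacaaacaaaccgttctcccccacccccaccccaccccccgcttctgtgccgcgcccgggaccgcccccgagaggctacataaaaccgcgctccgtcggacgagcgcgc

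The half-site stood in 6 of the 7 windows (Fos, Fosb, Junb, Atf3, Nr4a1 and Dusp1, not Jun), against 17.8% of all 32851 windows of the same length. Nr4a1 carried 4 copies, with first bases 233, 213, 69 and 40 bases before the start, and Junb carried 1, at 106. The full element was found in Dusp1 alone of the 7, against 1.55% of all windows, and the EGR site in Fosb and Nr4a1, against 4.70%. TATAAA was found in Fos (12.4% of all windows), and neither the AP-1 site TGANTCA (6.75%) nor the CArG box bound by serum response factor (1.47%) was found in any of the 7. These matches are descriptions of letters in a short window. A site farther from the start, or one that departs from the pattern, would not be found, and Egr1, Egr3 and Ier2 were not searched. Half-sites were present in genes that rose and in genes that were not called.

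Libraries held between 13464057 and 28191101 reads assigned to genes, and the reads behind a value of the 10 genes ranged from 76 (Egr3) to 2538 (Dusp1). Levels are given as CPM, a gene's reads relative to the library's total, with totals scaled by edgeR's TMM factors, which set libraries to a common level over most genes. Tnc itself had 437, 292 and 327 CPM in the wild-type libraries, in order of replicate number, and 33.4, 38.9, 39.9 and 55.0 CPM in those of Tnc-/- (log2 fold change −3.08, SE 0.21, adjusted p = 2.8e-04, edgeR), so each library carried the level its label implies, with some Tnc reads left in the Tnc-/- joints. Wild-type libraries 2 and 3 stood apart: reads on 2010 olfactory and vomeronasal receptor genes, which are not known to act in joints, summed to 1399 and 982 CPM there, to 89.1 in wild-type library 1 and to between 36.5 and 43.9 in the Tnc-/- libraries. Values given without wild-type libraries 2 and 3 rest on wild-type library 1 alone (n = 1) against 4: their spread comes from the Tnc-/- libraries, the lone wild-type library is assumed to vary as they do, and their p-values and calls compare 1 mouse with 4 and do not stand for wild type as a group. Fits with this receptor-gene level as a covariate have a limit too, as the level was higher in every wild-type library than in any Tnc-/- library. Their values rest mostly on differences among the wild-type libraries and are no independent check. The count files of the genotypes also came in different forms, so genotype and counting run cannot be told apart. Markers of muscle (Acta1, Ckm), tendon (Tnmd) and cartilage (Col2a1, Acan) were present in every library, whereas Scx, a tendon marker, was listed at 0 in all 7.

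Of the 10 immediate early genes, 2 rose in Tnc-/- joints, Nr4a1 and Junb, and none fell. Nr4a1 was higher by a log2 fold change of 0.91 and Junb by 0.74. The others, among them Fos, Egr1 and Dusp1, had overlapping libraries and fold changes between −0.20 and 0.46 on the log2 scale. Among all 17791 genes tested, 29.0% passed the same threshold (10.3% higher and 18.7% lower in Tnc-/-), so the 2 of 10, both higher, lie below the share called in either direction and above the share called higher. That balance of directions depended on the setting: voom called 728 higher and 276 lower, library totals gave 951 and 4541, and without wild-type libraries 2 and 3 there were 469 and 356. The libraries of the genotypes did not overlap in the same 2 genes, while 35.1% of all genes tested had groups that did not overlap. The median log2 fold change of the 10 was 0.19, beside −9.0e-04 over all genes tested. No gene of the 10 was lower at an unadjusted p under 0.05 in edgeR, DESeq2 or limma voom, and 3 were higher at that level in edgeR.

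**Figure D1:**
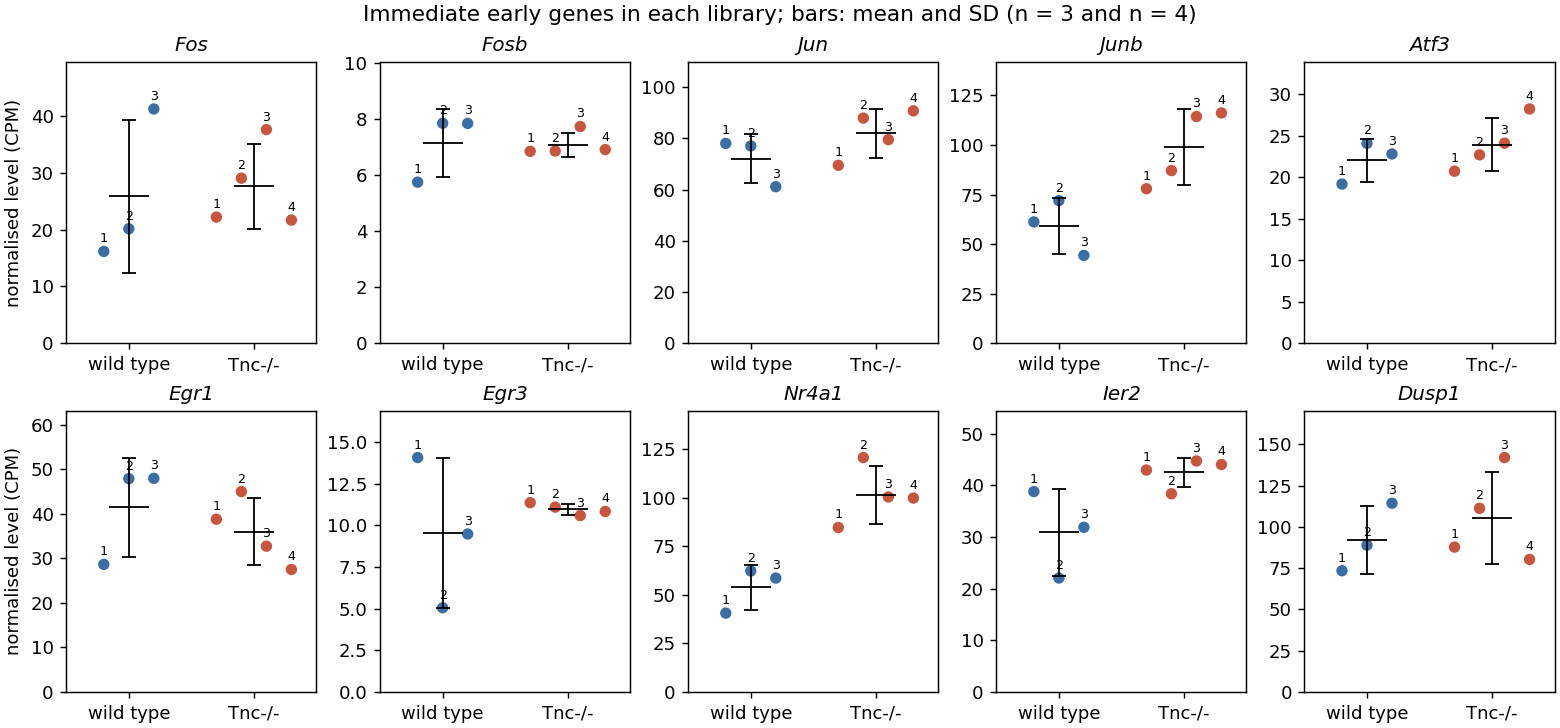
Each panel shows one immediate early gene, with its level in CPM (linear axis from 0) in each wild-type (blue, n = 3) and Tnc-/- (red, n = 4) library, numbered by replicate; the long bar is the mean and the whiskers are the SD. In Junb and Nr4a1 every Tnc-/- library lies above every wild-type library, while in the other 8 panels except that of Ier2, where 1 library overlaps, the groups overlap.

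Nr4a1 codes for a nuclear receptor induced by many stimuli, among them exercise in muscle and activation in immune cells. Its level was 40.6, 62.3 and 58.7 CPM in wild type and 84.7, 121, 100 and 99.9 CPM in Tnc-/-, here and throughout in order of replicate number. All 4 Tnc-/- libraries stood above all 3 wild-type libraries, a separation found with Tnc-/- above in 17.7% of all genes tested. The fold change was 1.88 (log2 0.91, SE 0.19, 95% interval 0.49 to 1.33, adjusted p = 0.0101, edgeR). Against wild-type library 1 alone it was 1.31 on the log2 scale (adjusted p = 0.00746, with no wild-type spread), and it was called in 17 of 20 other settings, with values from 0.58 to 1.50. When all genes were scaled by those spanning at most 10 kb, a setting added after the data were seen, it was 0.58 and not called (adjusted p = 0.0917).

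The other NR4A receptors were chosen for naming after their values were seen. Nr4a3 was at 3.38, 5.58 and 4.50 CPM in wild type and at 8.99, 12.7, 11.1 and 27.8 CPM in Tnc-/-, again without overlap, and rose (log2 fold change 1.75, SE 0.45, adjusted p = 0.0209, edgeR), with the highest value in Tnc-/- library 4. The call held in 11 of 20 other settings; it was lost without that library (1.28, adjusted p = 0.0573), without wild-type library 3 (1.76, adjusted p = 0.0760) and without wild-type libraries 2 and 3 (2.15, adjusted p = 0.0881). Nr4a2 was at 21.3 to 25.8 CPM in wild type and 22.3 to 40.6 CPM in Tnc-/-, and was not called (log2 fold change 0.24, 95% interval −0.27 to 0.75). The 3 receptors thus gave different values under one contrast, and the differences between them were not tested.

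Junb codes for the AP-1 subunit that tempers the action of Jun in many cells. It was at 61.2, 72.0 and 44.3 CPM in wild type and at 78.0, 87.1, 114 and 116 CPM in Tnc-/-, with no overlap, although wild-type library 2 and Tnc-/- library 1 were close. The log2 fold change was 0.74 (SE 0.21, 95% interval 0.26 to 1.22, adjusted p = 0.0301, edgeR). The call held in 8 of 21 other settings, with every value positive, and was lost without wild-type libraries 2 and 3 (0.69, adjusted p = 0.102), without wild-type library 3 alone (0.57, adjusted p = 0.108), and without Tnc-/- library 2 (0.79, adjusted p = 0.0538), library 3 (0.66, adjusted p = 0.0890) or library 4 (0.65, adjusted p = 0.0834). Junb overlaps Prdx2 on the opposite strand in GENCODE M21, where the genes share 351 bases, exons among them, and the strand setting of the counting is not given in the sources used here. Prdx2, a red-cell-rich peroxiredoxin, was at 270, 172 and 202 CPM in wild type and at 394, 290, 297 and 283 CPM in Tnc-/- (log2 fold change 0.56, adjusted p = 0.0658; called with DESeq2, adjusted p = 0.0260, and without wild-type library 1, 0.85, adjusted p = 0.000855), and its part in the Junb value was not tested.

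The partners of Junb in AP-1 were not called. Jun was at 78.1, 77.1 and 61.2 CPM in wild type and at 69.5, 88.0, 79.6 and 90.8 CPM in Tnc-/-, with a log2 fold change of 0.18 (95% interval −0.14 to 0.51). Fos, the member most often used as a sign of recent stimulation, was at 16.2, 20.1 and 41.2 CPM in wild type and at 22.2, 29.0, 37.6 and 21.7 CPM in Tnc-/-. Its highest and its lowest library were both wild type, and the log2 fold change was 0.10 with a wide interval of −0.67 to 0.87. Fosb was low and even, at 5.74, 7.84 and 7.84 CPM in wild type and at 6.84, 6.85, 7.73 and 6.90 CPM in Tnc-/- (log2 fold change −0.012, 95% interval −0.70 to 0.67). The interval of Fos reached beyond the value of Junb, and that of Jun did not. Jun shares 689 bases with the antisense gene Junos, which was at 5.53, 31.2 and 23.3 CPM in wild type and at 9.83 to 15.5 CPM in Tnc-/- (log2 fold change −0.63, adjusted p = 0.348). The direction of Junos depended on the wild-type libraries: it was called lower without wild-type library 1 (−0.99, adjusted p = 0.00143) and higher against that library alone (1.21, adjusted p = 0.0464) and with the receptor-gene covariate (1.97, adjusted p = 0.0261). Its part in the Jun value was not tested.

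Atf3, a stress-induced factor that pairs with Jun proteins, was at 19.2, 24.1 and 22.8 CPM in wild type and at 20.7, 22.7, 24.1 and 28.2 CPM in Tnc-/- (log2 fold change 0.12, 95% interval −0.27 to 0.51). It varied little among the 7 libraries. Of the AP-1 relatives, chosen for naming after their values were seen, Fosl2 was at 72.0 to 90.5 CPM in wild type and 87.6 to 109 CPM in Tnc-/-, and Jund at 30.8 to 36.2 and 31.9 to 54.9 CPM; neither was called (log2 fold change 0.28 and 0.21, adjusted p = 0.136 and 0.473, edgeR). Fosl2 was called without wild-type library 1 (0.47, adjusted p = 0.00895), as were 64.2% of all genes there.

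The EGR factors did not differ by the test either. Egr1, induced through serum response factor and a regulator of collagen genes in tendon, was at 28.7, 47.9 and 48.0 CPM in wild type and at 38.8, 45.0, 32.7 and 27.5 CPM in Tnc-/-. Its log2 fold change was −0.20 (95% interval −0.73 to 0.32), and the value turned to 0.32 without wild-type libraries 2 and 3, where Egr1 was highest. Egr3, which follows Egr1 in many cells and is needed for muscle spindles, was at 14.1, 5.05 and 9.48 CPM in wild type and at 11.4, 11.1, 10.6 and 10.8 CPM in Tnc-/-. Wild type held both its highest and its lowest library, whereas the Tnc-/- libraries lay within 1 CPM of each other (log2 fold change 0.20, 95% interval −0.59 to 0.99). Of their partners and relatives, 6 tested genes with Egr1 and Egr3 among them, 1 rose and 1 fell, or 33.3% beside 29.0% of all genes. Nab2, a corepressor that binds EGR proteins and is itself induced by them, rose from 13.1, 15.8 and 13.7 CPM to 21.7, 20.1, 26.9 and 29.7 CPM (log2 fold change 0.79, SE 0.20, adjusted p = 0.0197). Its call held in 9 of 21 other settings and was lost without wild-type libraries 2 and 3 (0.90, adjusted p = 0.0648), without wild-type library 3 (0.77, adjusted p = 0.0700) and without Tnc-/- library 3 (0.74, adjusted p = 0.0706) or 4 (0.69, adjusted p = 0.0625). Wt1, a related zinc-finger gene, fell from 5.04, 37.5 and 36.1 CPM to between 0 and 0.259 CPM, with its high values in the wild-type libraries that also carried the receptor-gene reads. It was lower in the edgeR fit (log2 fold change −7.48, adjusted p = 0.00585), by less against wild-type library 1 alone (−5.10), and was called in 17 of 19 other settings, not with voom or edgeR's Bonferroni adjustment.

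Ier2 lay nearest the threshold of the genes not called. It was at 38.8, 22.1 and 31.9 CPM in wild type and at 43.0, 38.4, 44.7 and 44.0 CPM in Tnc-/-, where wild-type library 1 overlapped Tnc-/- library 2 by under 1 CPM. The log2 fold change was 0.46 (SE 0.19, 95% interval 0.021 to 0.90), with an unadjusted p of 0.0421 and an adjusted p of 0.104 by edgeR's quasi-likelihood test. Without wild-type library 1 it was called (0.75, adjusted p = 0.00217), as were 64.2% of all genes in that setting, and with the receptor-gene level as a covariate it was −0.084.

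Dusp1, which ends MAP kinase signalling and is also induced by glucocorticoids, was at 73.5, 89.0 and 114 CPM in wild type and at 87.8, 111, 142 and 80.3 CPM in Tnc-/-. The groups overlapped, with wild-type library 1 below and Tnc-/- library 3 above all other libraries (log2 fold change 0.19, 95% interval −0.33 to 0.71, adjusted p = 0.559, edgeR). Dusp1 shares 640 bases, exons among them, with Ergic1 on the opposite strand in GENCODE M21, and overlaps 3 pseudogenes or intronic transcripts outside its exons. Ergic1 was at 72.3, 93.4 and 78.0 CPM in wild type and at 62.1, 70.6, 71.9 and 78.5 CPM in Tnc-/- (log2 fold change −0.20, adjusted p = 0.295; called lower with library totals, −0.45, and with scaling by genes spanning at most 10 kb, −0.52), and its part in the Dusp1 value was not tested. Of 14 other feedback phosphatases and inhibitors of the pathway, 1 rose and none fell (7.14%, beside 29.0% of all genes in either direction), with a median log2 fold change of −0.088; 2 of them were lower at an unadjusted p under 0.05, and DESeq2 called 1 higher and 2 lower. With scaling by genes spanning at most 10 kb none of the 14 rose and 2 fell, with a median of −0.37. The one that rose in the edgeR fit, Dusp8, a phosphatase of stress-activated kinases, went from 18.0, 25.3 and 27.6 CPM to 36.4, 41.9, 39.6 and 39.3 CPM (log2 fold change 0.73, SE 0.17, adjusted p = 0.0158). It was called in 13 of 20 other settings, with 1.12 against wild-type library 1 alone, and not without Tnc-/- library 2 (0.70, adjusted p = 0.0511) or 3 (0.73, adjusted p = 0.0537).

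**Figure D2:**
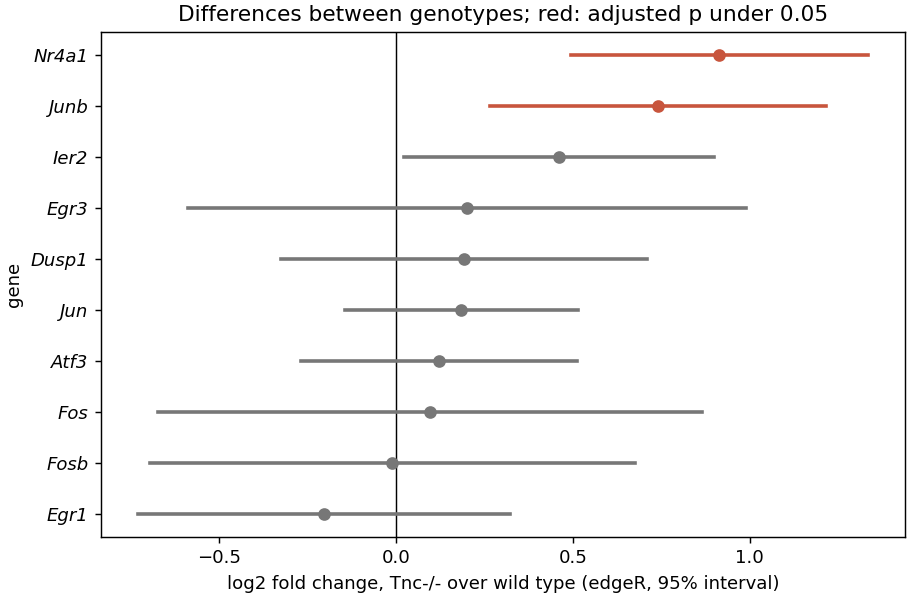
Points give the log2 fold change of each immediate early gene in Tnc-/- over wild type (edgeR, n = 4 against n = 3) and lines its 95% interval; red marks an adjusted p under 0.05. The intervals of Nr4a1 (0.49 to 1.33), Junb (0.26 to 1.22) and Ier2 (0.021 to 0.90) lie above 0, that of Ier2 without passing the adjusted threshold.

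Per kilobase of exon, which lets genes be compared, the level in wild type ran in the order Dusp1 (27.9 ± 6.24 CPM per kb, SD, n = 3), Junb (25.7), Jun (22.6), Ier2 (20.3), Nr4a1 (15.4), Fos (11.0), Atf3 (10.2), Egr1 (9.26 ± 2.48), Egr3 (2.16 ± 1.02) and Fosb (1.14 ± 0.19). Among these neighbours the step from Egr1 to Egr3 was the one that exceeded the SD of both genes. In Tnc-/- the order of levels was Junb (43.0), Dusp1 (31.8), Nr4a1 (28.9), Ier2 (27.9), Jun (25.7), Fos (11.7), Atf3 (11.1), Egr1 (8.03), Egr3 (2.49) and Fosb (1.13). Junb thus led the 10 genes in Tnc-/-, and the steps from Junb to Dusp1, from Jun to Fos, from Atf3 to Egr1, from Egr1 to Egr3 and from Egr3 to Fosb exceeded the SD of both neighbours. Exon lengths came from GENCODE M21 on GRCm38, a different build from the one the submitters' notes name.

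The 10 genes did not rise and fall as a block across libraries. Wild-type library 1 was the lowest of the 7 for Fos, Fosb, Atf3, Nr4a1 and Dusp1 and the highest for Egr3. Wild-type library 3 was the highest for Fos and Egr1 and the lowest for Jun and Junb, so members of the same AP-1 dimers sat at opposite ends in one joint. Tnc-/- library 3 was the highest for Ier2 and Dusp1, and Tnc-/- library 4 was the highest for Jun, Junb and Atf3 and the lowest for Egr1. Summed over the 10 genes, the level was 376, 427 and 440 CPM in wild type and 463, 560, 594 and 526 CPM in Tnc-/-, without overlap. Without Nr4a1 and Junb the sums were 274, 293 and 337 CPM in wild type and 300.2, 352, 379 and 310.3 CPM in Tnc-/-, and overlapped.

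**Figure D3:**
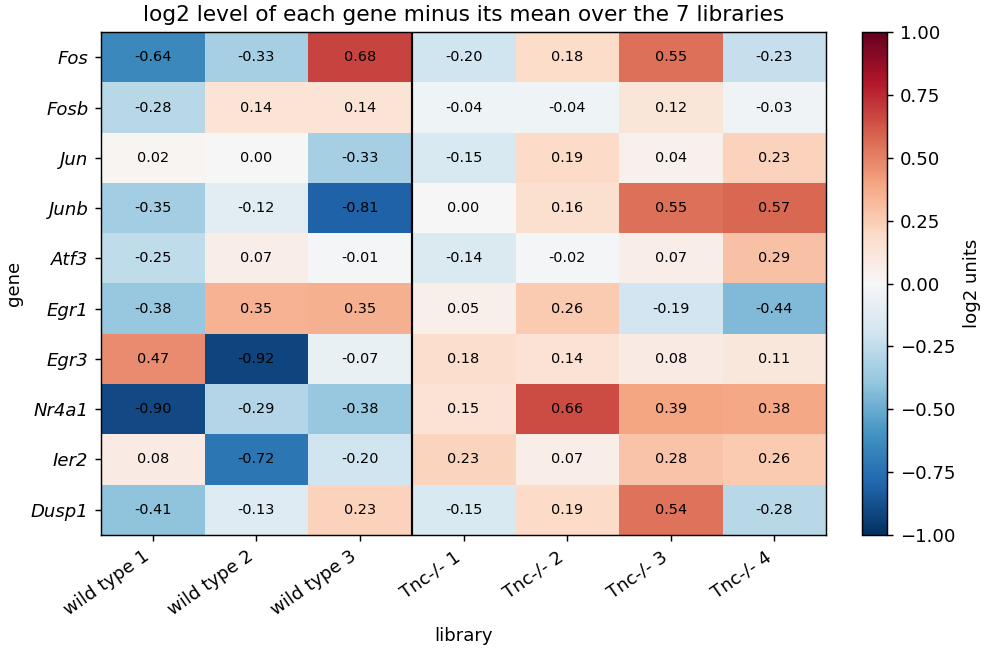
Each cell gives the log2 level (CPM plus 0.5) of an immediate early gene in one library minus that gene's mean over the 7 libraries, with red above and blue below 0. Junb and Nr4a1 are below 0 in all 3 wild-type columns and Nr4a1 is above 0 in all 4 Tnc-/- columns, whereas Fos spans −0.64 to 0.68 within wild type alone.

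Ratios of reads between genes in the same library need no scaling. Nr4a1 reads per Egr1 read were 1.42, 1.30 and 1.22 in wild type and 2.18, 2.68, 3.07 and 3.63 in Tnc-/-. Junb reads per Jun read were 0.784, 0.934 and 0.725 in wild type and 1.12, 0.991, 1.44 and 1.28 in Tnc-/-. Both ratios separated the genotypes, as did Nr4a1 per Dusp1 (0.513 to 0.701 against 0.707 to 1.24, the nearest libraries almost touching), whereas Fos per Jun (0.207 to 0.673 against 0.238 to 0.472), Fos per Fosb, Egr1 per Egr3, Nr4a1 per Fos and Junb per Fos overlapped. These 8 ratios were chosen with the levels known and are descriptions.

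Of 47 further immediate early and rapid response genes, 45 were tested; 13 rose and none fell in Tnc-/-, which is 28.9% beside 29.0% of all genes in either direction and 10.3% higher. The median log2 fold change was 0.42, and 1 gene was lower at an unadjusted p under 0.05. DESeq2 called 16 higher and none lower, and limma voom 7 higher and none lower. Library totals gave 8 higher and 1 lower, and scaling by genes spanning at most 10 kb 6 and 1, with a median of 0.11. Those genes alone gave 2 and 1. Without wild-type library 1, where 64.2% of all genes were called, 24 were higher and 1 lower. Against wild-type library 1 alone the count was 5 of 45, beside 4.45% of all genes. Csrnp1 was listed at 0 in all 7 libraries.

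Per1, a clock gene that is also induced quickly by glucocorticoids and cyclic AMP, had the smallest p of the 13. It was at 22.6, 33.6 and 33.9 CPM in wild type and at 81.8, 99.9, 150 and 127 CPM in Tnc-/- (log2 fold change 1.93, SE 0.25, adjusted p = 0.00654). Klf2, a factor induced by shear stress in endothelium, rose from 51.3 to 62.3 CPM in wild type to 101 to 124 CPM in Tnc-/- (0.95, SE 0.13, adjusted p = 0.00670). Mafk, a small Maf protein that pairs with stress-response factors, rose from 20.2 to 28.7 CPM to 45.9 to 54.9 CPM (0.95), and Gadd45g, a stress-induced signalling protein, from 16.6 to 22.4 CPM to 31.6 to 42.5 CPM (0.88). Ppp1r15a, which helps reverse the stress block on translation, rose from 22.5 to 40.1 CPM to 53.5 to 90.4 CPM (1.18), and Btg2, an inhibitor of proliferation, from 28.8 to 50.7 CPM to 66.1 to 101 CPM (0.99). The groups did not overlap in any of these 6 genes, which were picked by their p; over the 45, 17 had Tnc-/- above and 1 below, beside 17.7% and 17.4% of all genes. Against wild-type library 1 alone, Per1 (2.34, adjusted p = 0.00414), Klf2, Mafk and Gadd45g were called, and Ppp1r15a (0.72, adjusted p = 0.129) and Btg2 (0.67, adjusted p = 0.109) were not. Ppp1r15a (1.03, adjusted p = 0.0592) and Btg2 (1.02, adjusted p = 0.0570) also lost their call without wild-type library 3 alone.

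The most abundant of the further genes were not called in the edgeR fit over all 7 libraries. Mcl1, which keeps cells from apoptosis, was at 216 to 302 CPM in wild type and 314 to 338 CPM in Tnc-/- (log2 fold change 0.37, adjusted p = 0.104), and Rhob, a small GTPase, at 142 to 177 and 172 to 248 CPM (0.35, adjusted p = 0.141). Ccn2, a matrix protein induced by stretch, was at 102 to 132 and 118 to 193 CPM (0.35, adjusted p = 0.1999, edgeR). Zfp36l1 and Klf6 had log2 fold changes of 0.050 and 0.051, and Btg1 of 0.13. Without wild-type library 1, where 64.2% of all genes were called, Mcl1 (0.62, adjusted p = 0.00157), Rhob (0.53, adjusted p = 0.0144) and Btg1 (0.35, adjusted p = 0.0373) were called, and DESeq2 on all libraries called Mcl1 (0.34, adjusted p = 0.0382).

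**Figure D4:**
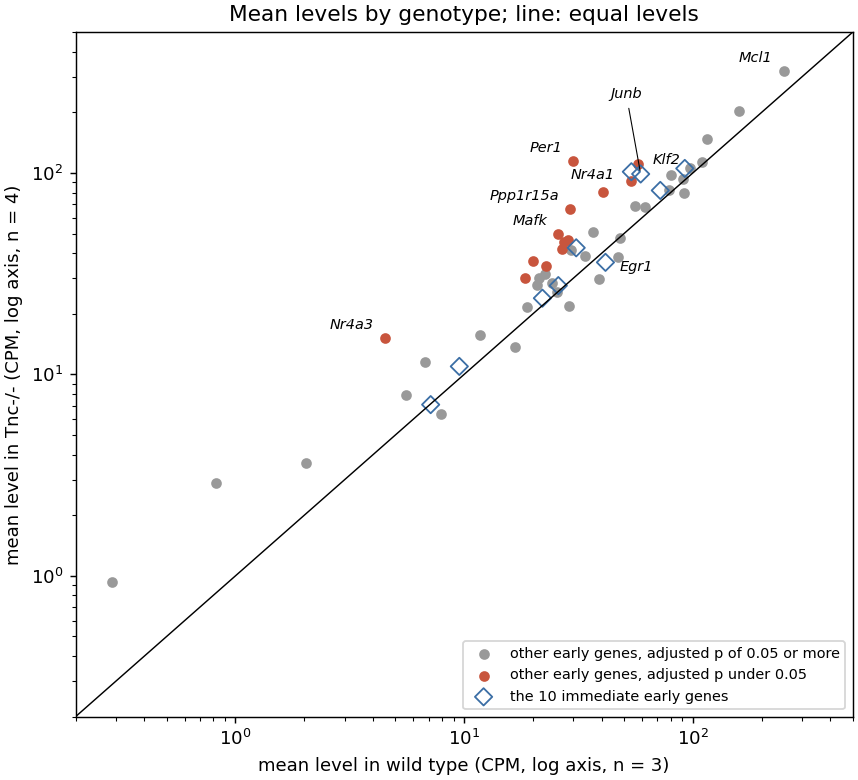
Mean level in Tnc-/- (n = 4) against mean level in wild type (n = 3), both in CPM on log axes, for the 10 immediate early genes (diamonds) and the 45 further immediate early and rapid response genes tested (dots, red where the adjusted p was under 0.05); the line marks equal levels. The red dots lie above the line, with Per1 (30.03 and 115 CPM) and Nr4a3 (4.49 and 15.1 CPM) farthest from it, and the diamonds of Nr4a1 and Junb lie among them.

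Of 30 tested kinases and transcription factors that carry signals to the immediate early promoters, 5 rose and 1 fell, or 20% beside 29.0% of all genes, with a median log2 fold change of 0.13. Scaling by genes spanning at most 10 kb turned this balance, to 3 higher and 5 lower with a median of −0.19. Srf, the serum response factor that drives Fos and Egr1, rose from 58.0, 46.8 and 49.3 CPM to 77.4, 79.5, 97.1 and 86.9 CPM (log2 fold change 0.73, SE 0.14, adjusted p = 0.00835, edgeR). Mef2d, a factor known to act on Nr4a1 in lymphocytes, rose from 145, 110 and 101 CPM to 205, 241, 235 and 198 CPM (0.89, SE 0.17, adjusted p = 0.00837). Crtc1, a coactivator of CREB, rose from 27.2, 27.2 and 21.2 CPM to 34.0, 36.9, 42.3 and 38.5 CPM (0.59, SE 0.15, adjusted p = 0.0229). With wild-type libraries 2 and 3 left out, 1 of the 30 was called, and Srf (0.55, adjusted p = 0.0902), Mef2d (0.59, adjusted p = 0.0903) and Crtc1 (0.47, adjusted p = 0.141) were not. Crtc1 was called in 8 of 20 other settings and lost its call without wild-type library 3 (0.48, adjusted p = 0.0736) or any 1 of Tnc-/- libraries 2 to 4 (0.60, 0.53 and 0.58).

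Other quick responses were counted beside the immediate early genes, each set against the 29.0% of all genes called in either direction (4.45% without wild-type libraries 2 and 3). Of 21 heat shock genes 4 rose and none fell, or 19.0% (none lower at an unadjusted p under 0.05; DESeq2 called 5 higher and none lower). Voom called none of the 21, and scaling by genes spanning at most 10 kb called 1 higher and none lower. Hspd1, Fkbp4 and Dnajb1, all chaperones or their partners, were higher by 0.54, 0.57 and 0.62 on the log2 scale in the edgeR fit. Their calls held in 6 of 20, 9 of 21 and 3 of 21 other settings. With wild-type libraries 2 and 3 left out, edgeR called none (1 lower and none higher at an unadjusted p under 0.05) and the median was −0.055 in place of 0.30. Of 14 integrated stress response genes 5 rose and 1 fell, or 42.9%, which became 1 of 14 without those libraries and 1 of 14 with voom. Chac1, a glutathione-degrading enzyme, went from 11.1 to 14.0 CPM in wild type to 29.4 to 49.2 CPM in Tnc-/- (log2 fold change 1.60, and 1.71 against wild-type library 1 alone). Atf4, the factor at the centre of the response, was higher by 0.55 and was called in 5 of 21 other settings, in none that left out 1 library other than wild-type library 1. The hormone gene Fgf21 fell, from 0.751, 3.99 and 0.972 CPM to 0 to 0.185 CPM, and was called in 11 of 20. Of 16 hypoxia genes 3 rose, or 18.8%, and edgeR called 0 of 16 without wild-type libraries 2 and 3 (4 higher and 2 lower at an unadjusted p under 0.05). They were Vegfa, a growth factor for vessels (0.93), and the glycolysis regulators Pfkfb4 (1.0) and Pfkfb3 (0.53, called in 3 of 20 other settings). Of 13 glucocorticoid-induced genes, a list that also holds Per1 and Dusp1, 4 rose, or 30.8%, and 3 without those libraries. Among the 4 were Angptl4, a lipase inhibitor (0.79, and 0.64 with adjusted p = 0.0914 without those libraries), and Lcn2 (1.13, called in 10 of 21), which is a neutrophil granule gene too. The part of these responses in the immediate early values was not tested.

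Marker RNA of some cell types was higher in Tnc-/- libraries, again beside 29.0% of all genes called. Of 16 neutrophil markers 11 rose (68.8%), and their summed level was 3478 to 7088 CPM in wild type and 7626 to 12775 CPM in Tnc-/-. Of 14 erythroid markers tested 9 rose (64.3%; 5238 to 9994 CPM against 14206 to 27715 CPM in sum; Alas2 was listed at 0), and of 16 skeletal muscle markers 3 rose (18.8%; 28738 to 40463 against 42217 to 62952 CPM), where DESeq2 called 10 higher and all 16 fold changes were positive. Camp, a neutrophil granule peptide, Ank1, a red cell membrane protein, and Myh4, a fast muscle myosin, rose by 1.41, 1.76 and 1.18 on the log2 scale. The groups did not overlap in any of these 3 sums, and in each wild-type library 1 lay closest to the Tnc-/- libraries. Without wild-type libraries 2 and 3 edgeR called 0 of 16, 2 of 14 and 0 of 16, with 3, 7 and 2 higher at an unadjusted p under 0.05. Markers of macrophages (1 higher and 1 lower of 14), endothelium (2 and 2 of 10), fibroblasts and tendon (1 and 2 of 13), cartilage and bone (1 and 0 of 11) and epidermis (0 and 2 of 4) had sums that overlapped between genotypes. The part of any of these cell types in the Nr4a1 and Junb values was not tested.

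The genes whose levels followed the mean of the 10 most closely over the 7 libraries, out of 12370 with a mean of at least 5 CPM, were Pttg1 (Pearson's r = 0.98), Fbxo22 (0.98), Zfp467 (0.97), Notch3 (0.97) and Vgll4 (0.96). They were picked as the best of many on 7 points, which share libraries and scaling. Notch3, a receptor of vascular smooth muscle, rose from 24.6 to 33.7 CPM in wild type to 43.2 to 57.9 CPM in Tnc-/- (log2 fold change 0.70, adjusted p = 0.0163, edgeR; 0.61 with adjusted p = 0.0591 without Tnc-/- library 3), and the other 4 were not called in that fit. DESeq2 called Vgll4 (adjusted p = 0.0290) and Fbxo22 (adjusted p = 0.0446), both were also called without wild-type library 1 (adjusted p = 0.0230 and 0.0420), and Vgll4 without a filter (adjusted p = 0.0353).

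**Figure D5:**
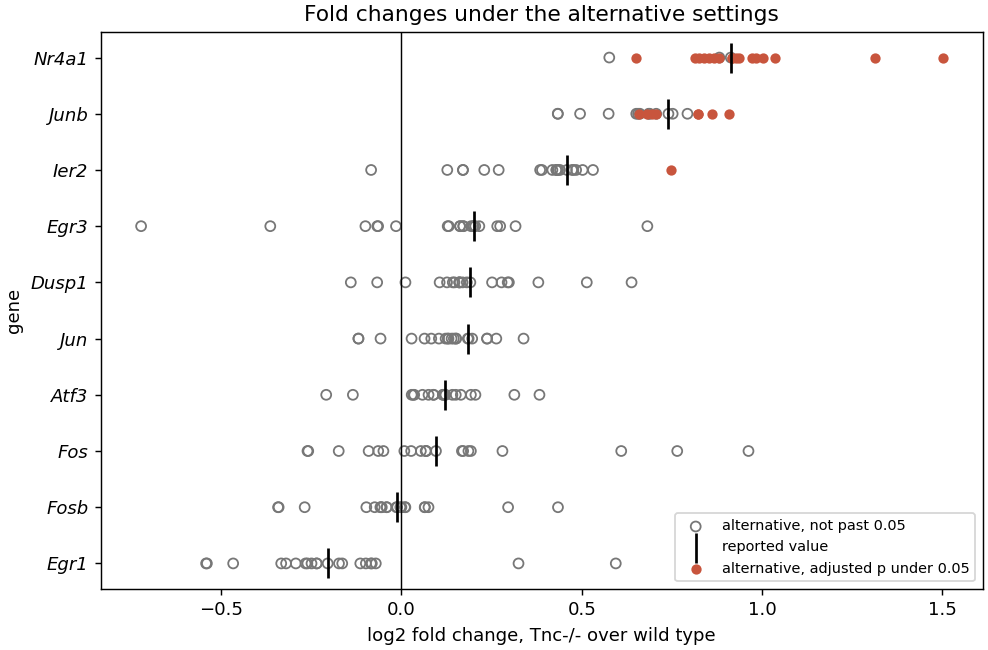
Each row shows the log2 fold change of one immediate early gene in the reported comparison (bar) and in the other settings (circles, filled red where called). Nr4a1 (0.58 to 1.50) and Junb (0.43 to 0.91) stay above 0 throughout, while the other 8 genes have values on both sides of 0.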

How the data were processed

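Polyadenylated RNA was sequenced after library preparation with a NEBNext Ultra kit, per the labels' protocols. Each library's file held raw read counts per gene as deposited by the authors. The submitters' processing notes name FastQC 0.11.9, HISAT2 2.2.1, HTSeq 2.0.2, DESeq2 1.38.3 and the GRCm39 (mm39) genome; the strand setting is not given in the sources used here. Wild-type files listed 56980 identifiers and Tnc-/- files 56941, of which 56854 were shared. The Tnc-/- files also held 5 lines naming no gene (30.1 to 32.7% of their listed reads), left out of library sizes and tests; the wild-type files held none.

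Counts were tested with edgeR 4.0.16 (R 4.3.3; filterByExpr, TMM, robust quasi-likelihood, genotype as the term, all 7 libraries), with Benjamini-Hochberg adjustment over 17791 genes at 0.05. DESeq2 1.42.0, limma 3.58.1 (voom), other scalings and filters, a replicate block, a background covariate and left-out libraries were alternatives. On simulated counts for 17487 genes the test recovered 27 of 100 changes of 1 and 76 of 100 changes of 2 on the log2 scale. It called 5 unchanged genes. The simulated libraries held neither the receptor-gene reads of wild-type libraries 2 and 3 nor a difference in counting run between genotypes. The simulation therefore gives no error rate for the real libraries. Gene lengths, spans and overlaps came from GENCODE M21 (GRCm38), upstream windows from RefSeq (GRCm38.p6). The 10 genes and the lists were chosen with earlier results of these data known. Named were all 10, Tnc, up to 6 called and the 6 most abundant further early genes, at most 3 genes of every other list (called genes with the smallest p, otherwise the most abundant), and the 5 genes of most similar pattern; the NR4A and AP-1 relatives and the genes overlapping Jun, Junb and Dusp1 were added after their values were seen. Intervals on fold changes are 95% intervals.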

Additional observations from a re-analysis of the deposited data

Results flagged for a closer look

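Fosb in Tnc-/- library 3, at 7.7256 CPM, stood apart from the other Tnc-/- libraries (6.84 to 6.90 CPM), by Dixon's criterion for 4 samples. The criterion picks about 1 in 20 groups by chance, and 10 genes were examined.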

How the results depend on the processing

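Nr4a1 kept its direction under its 20 alternatives and Junb under its 21. Of the results for the 10 genes under the alternatives, 160 kept direction and side of the threshold, 16 lost their call (all Junb or Nr4a1), 1 gained one (Ier2) and 30 changed sign, none of them a called value; the cause was not tested.

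The called genes were 2 of 10, 13 of 45 further early genes and 5159 of all genes. They were 9423 of all genes with DESeq2; 0, 2 and 1890 with DESeq2 and Bonferroni adjustment; 0, 0 and 22 with edgeR and Bonferroni adjustment; 1, 7 and 1004 with limma voom; 1 of the 10 with library totals; 0, 3 and 629 among genes spanning at most 10 kb alone, which tests fewer genes; 0 and 7 for the gene sets with scaling from those genes; 1, 1 and 399 with the receptor-gene level as a covariate; and 1, 5 and 825 without wild-type libraries 2 and 3. With 1 library left out the called genes ranged from 1 to 3, 5 to 25 and 2229 to 14113, the highest without wild-type library 1. The fit on genes spanning at most 10 kb tested 7 of the 10, 34 further early genes and 4662 of all genes. Nr4a1, Atf3 and Dusp1 span more and were not tested there. DESeq2 with Benjamini-Hochberg adjustment covered 29121 genes and called 32.4% of them, beside 29.0% of 17791 with edgeR.

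Same-numbered libraries of the genotypes did not deviate together (correlations −0.00085, 0.054 and −0.043), and the libraries were treated as unpaired. With so few libraries this check cannot exclude that same-numbered libraries were handled together. With the replicate block on replicates 1 to 3, 1, 6 and 1713 genes were called, Fosb was 0.0099 and Jund −0.0012.

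Log2 values that changed sign were as follows. With voom, Fosb was 0.011, and without a filter 0.075. With library totals, Atf3 was −0.13, Dusp1 −0.067, Egr3 −0.015, Fos −0.17, Jun −0.058, Btg1 −0.10, Jund −0.033, Klf6 −0.19, Nr4a2 −0.0051 and Zfp36l1 −0.19; that scaling moved the median of all genes to −0.24. With scaling from genes up to 10 kb (median −0.31, chosen after seeing the data), Atf3 was −0.21, Dusp1 −0.14, Egr3 −0.065, Fos −0.26, Jun −0.12, Btg1 −0.16, Fosl2 −0.013, Jund −0.10, Klf6 −0.25, Nr4a2 −0.077, Pttg1 −0.032 and Zfp36l1 −0.26. Among those genes alone, Egr3 was −0.067, Fos −0.26, Jun −0.12, Btg1 −0.16, Jund −0.10, Klf6 −0.25, Pttg1 −0.031 and Zfp36l1 −0.26. With the covariate, Egr1 was 0.59, Egr3 −0.72, Fosb 0.43, Ier2 −0.084, Btg1 −0.21, Ergic1 0.045, Junos 1.97, Klf6 −0.23, Mcl1 −0.052 and Zfp36l1 −0.16. Without wild-type libraries 2 and 3, Egr1 was 0.32, Egr3 −0.36, Fosb 0.30, Btg1 −0.11, Junos 1.21, Klf6 −0.14 and Zfp36l1 −0.071. Klf6 and Zfp36l1 were −0.015 and −0.017 with upper-quartile scaling and −0.027 and −0.029 with at least 10 counts in every sample.

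With 1 library left out, the ranges were −0.54 to 0.043 for Egr2, −0.10 to 0.68 for Egr3, −0.091 to 0.61 for Fos, −0.058 to 0.065 for Fosb, −0.0031 to 0.36 for Jund, −0.036 to 0.24 for Klf6 and −0.067 to 0.20 for Zfp36l1. Egr3 and Fosb had the fewest reads of the 10 genes, with as few as 76 and 107 in a library, and the part of depth in their spread was not tested.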
